A study of Mus musculus with 14 samples.

Results

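The 34 cell cycle and DNA replication genes described here were taken by name from a table of 57180 genes measured by RNA sequencing in whole mouse liver, and each name matched 1 row. Of the 34 members, 32 had enough counts to be tested, and Ccnb1 (cyclin B1) and Aurkb (Aurora kinase B) did not. The libraries came from 14 littermates fed normal chow, 6 labelled WT for Pkd1, 4 labelled Het and 4 labelled Homo. Cre is named in every label, that of WT included. Pkd1 encodes polycystin 1, a large membrane protein of the primary cilium whose loss causes cysts of the kidney and the bile ducts. Which Pkd1 allele was used, what drives Cre, and the sex, age, litter and collection time of the animals are not in the labels, and neither are the cells that carry the alteration. The series title concerns Pkd1-mutant clones in diseased liver, and the chow-fed animals allow the question of whether proliferation genes differ by Pkd1 genotype in its absence.

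Adult hepatocytes rest outside the cell cycle and re-enter it after injury or loss of liver mass. Entry is driven by D-type cyclins, which free E2F transcription factors from the retinoblastoma protein, and E2F then switches on the genes that license and copy DNA. The MCM proteins form the ring-shaped helicase that opens DNA at replication origins. Genes of mitosis are switched on later, when the DREAM repressor gives way to the activators B-MYB and FOXM1. Cdkn1a encodes p21, a protein that blocks cyclin-dependent kinases, and is induced by p53 and by several stress and hormone signals.

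The promoters of 5 members are shown because the results turn on these genes: Mcm2, Mcm5, Mki67 and Cdkn1a had an unadjusted p under 0.05 in Homo against WT, and Cdk1 stands for the mitosis genes that were highest in a single Homo liver. Each line gives the 170 bases before the annotated start, 5′ to 3′, from RefSeq on GRCm38.p6, a build other than that of the count table. Capitals mark matches on either strand to 4 patterns, and overlapping matches run together. The patterns were an E2F site (TTTCCCGC, TTTGGCGC, TTTCGCGC or TTTGCCGC), the cell cycle homology region or CHR, bound by the DREAM complex (TTTGAA), the CCAAT box bound by NF-Y (CCAAT), and a spaced p53 core (CATGNNNNNNCATG). The stretches lie at chr6:88898781-88898950 (minus strand) for Mcm2, chr8:75109339-75109508 (plus strand) for Mcm5, chr7:135716380-135716549 (minus strand) for Mki67 and chr10:69352913-69353082 (minus strand) for Cdk1. For Cdkn1a, which has 2 listed starts, the upstream one is shown, at chr17:29090809-29090978 (plus strand).
Mcm2: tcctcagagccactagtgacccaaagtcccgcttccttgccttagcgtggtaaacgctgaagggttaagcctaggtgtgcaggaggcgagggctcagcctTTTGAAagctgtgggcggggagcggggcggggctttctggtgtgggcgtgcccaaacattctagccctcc
Mcm5: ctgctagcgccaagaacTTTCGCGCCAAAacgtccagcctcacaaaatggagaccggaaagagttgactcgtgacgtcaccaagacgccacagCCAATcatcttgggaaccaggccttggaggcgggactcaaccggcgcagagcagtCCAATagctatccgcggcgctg
Mki67: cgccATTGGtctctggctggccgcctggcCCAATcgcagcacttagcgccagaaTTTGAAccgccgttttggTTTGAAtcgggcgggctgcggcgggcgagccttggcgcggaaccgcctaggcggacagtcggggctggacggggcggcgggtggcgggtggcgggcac
Cdk1: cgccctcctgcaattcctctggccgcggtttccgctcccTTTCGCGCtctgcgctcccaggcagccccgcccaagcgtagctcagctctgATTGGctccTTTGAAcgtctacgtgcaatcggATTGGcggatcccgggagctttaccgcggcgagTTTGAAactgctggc
Cdkn1a: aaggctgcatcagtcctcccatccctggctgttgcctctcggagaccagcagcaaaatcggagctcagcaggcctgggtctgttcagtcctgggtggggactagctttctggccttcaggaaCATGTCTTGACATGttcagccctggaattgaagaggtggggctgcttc

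RefSeq promoters were matched for 27 of the 34 members and were searched over 300 bases, 250 before and 50 after the start. An E2F pattern was in 6 of the 11 matched replication promoters (Mcm3, Mcm5, Mcm6, Mcm7, Cdc6 and Cdt1) and in 1 of the 13 matched mitosis promoters (Cdk1), against 2.6% of 27025 genes. CHR was in 9 of the 13 mitosis promoters and in 1 of the 11 replication promoters, Mcm2, against 20.2% of genes. The same 9 mitosis promoters also held CCAAT, a pair of patterns found together in 8.97% of genes. CCAAT by itself was in 11 of the 13 mitosis promoters and in 8 of the 11 replication promoters, against 41.1% of all genes. The p53 core was at the upstream start of Cdkn1a and in no other matched member, against 0.833% of genes. A glucocorticoid response pattern (ACANNNTGT), searched over the same bases, was in Mcm7 and in no other matched member, Cdkn1a included, against 7.9% of genes. A match to a pattern describes the sequence and says nothing of binding in these livers.

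As a check of the labels, Pkd1 itself lay between 23.1 and 26.4 CPM in the Homo libraries, between 28.1 and 36.7 CPM in Het and between 31.4 and 37.7 CPM in WT, so Homo did not overlap WT. CPM are counts scaled to the effective library size. These counts cover the whole gene and do not show whether an exon was deleted. Total counts per library ran from 18573739, in Homo 4, to 40925973, and mitochondrial genes took 9.83% to 12.5% of them. Hepatocyte markers were abundant in every library, with Alb at 31705 CPM or more, so the tissue label held. Among the members 2 livers stood apart: the library Het 3 and the library Homo 4 had the highest Cdkn1a, and Homo 4 had the highest value of all 14 libraries in 13 of the 32 tested members. Over all tested genes Homo 4 was highest in 8.6%. The counts above 0 and medians of the members in Homo against WT are given below with and without Homo 4. Genes highest in Homo 4 and named for their fold in Homo against WT are also given without it. Other values leave out Het 3 or Homo 4 only where stated.

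Most members were scarce. The mean level over the libraries was below 7.85 CPM, the median of all tested genes, for 27 of the 32 tested members. Per kilobase of exon in WT, with lengths from GENCODE M21, Ccnd1 (cyclin D1) stood first at a level of 11.8 CPM per kb. Pcna, the sliding clamp of DNA polymerase, followed at 7.02 CPM per kb, and Rrm2, the regulated subunit of ribonucleotide reductase, at 3.6 CPM per kb. The MCM genes ran from 0.437 CPM per kb (Mcm2) to 1.84 CPM per kb (Mcm7). The mitosis genes ran from 0.0251 CPM per kb for Ccnb1 to 0.548 CPM per kb for Mki67, the source of the Ki-67 proliferation antigen, which lay above Mcm2. The replication genes Cdc6 and Gins2 were as scarce as most mitosis genes, at 0.0447 and 0.111 CPM per kb. In 11 of the 16 mitosis genes the mean was under 1 CPM in all 3 groups, and Ccnb1 had between 0 and 9 counts in a library. The means in WT, Het and Homo of the 2 genes that could not be tested were 0.106 ± 0.0911, 0.253 ± 0.151 and 0.242 ± 0.111 CPM for Ccnb1, and 0.251 ± 0.204, 0.285 ± 0.141 and 0.171 ± 0.0948 CPM for Aurkb (± SD, n = 6, 4 and 4).

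The spread between WT livers followed the level. The median coefficient of variation among the 6 WT libraries was 18.2% over the 13 replication genes, 24.9% over the 4 genes of G1/S control and 33.4% over the 14 tested mitosis genes, against 16.1% over all tested genes. Rrm2 was the steadiest tested member in WT, between 9.17 and 11.6 CPM (coefficient of variation 9.26%). It was less even outside WT, with 7.6, 5.41, 8.12 and 11.8 CPM in Het and 13.1, 4.94, 9.98 and 12.0 CPM in Homo. Cdc6, which loads the MCM ring at origins, varied most among the tested members in WT, by 60.6%, at 0.234 ± 0.142 CPM (SD, n = 6).

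**Figure D1:**
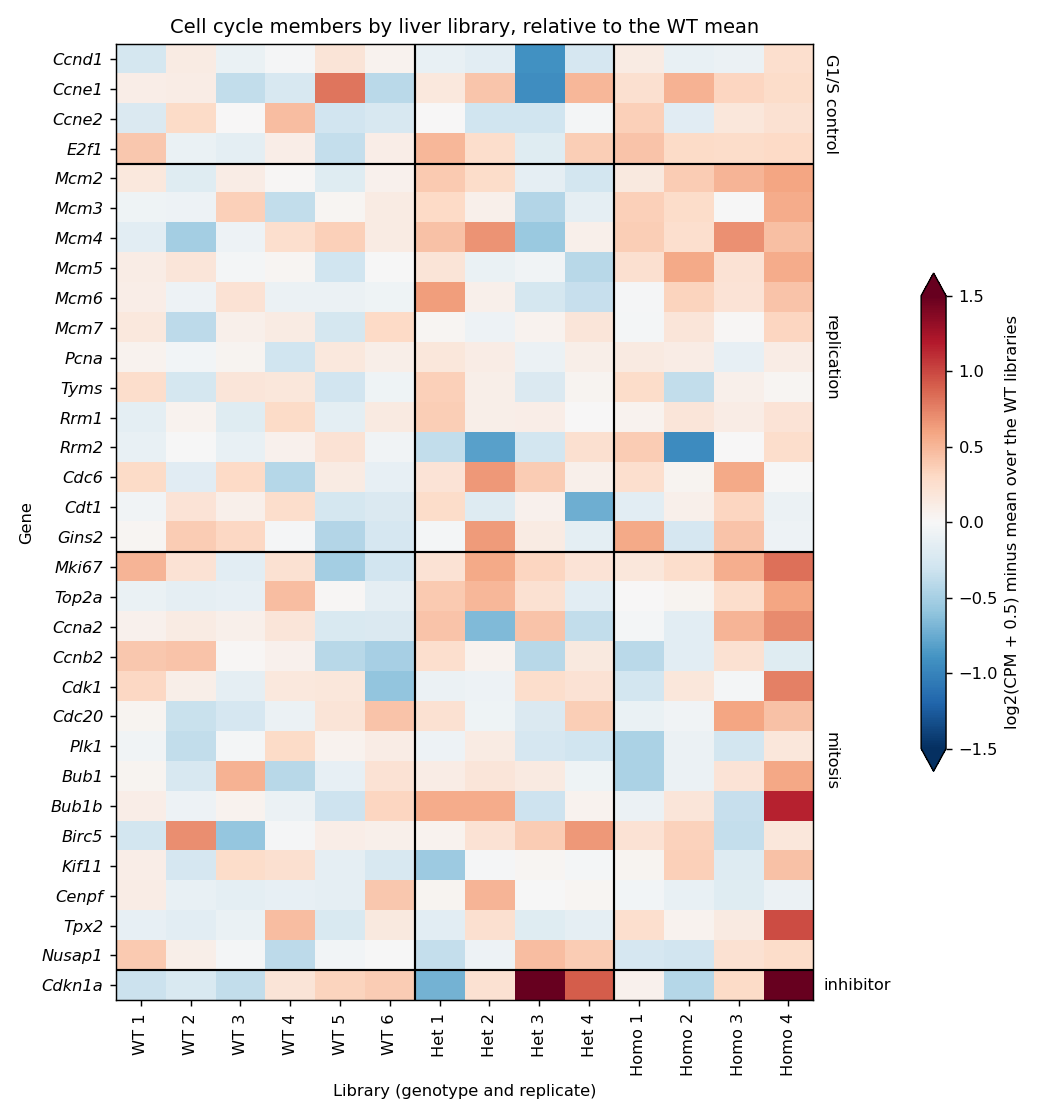
Level of the 32 tested members (rows, by role) in the 14 liver libraries (columns), as log2(CPM + 0.5) minus the mean over the 6 WT libraries; red is above and blue below the WT mean, and the colour scale stops at 1.5 either way. The column of Homo 4 is red through most of the replication and mitosis rows, and Cdkn1a at the bottom is dark red in Het 3 and Homo 4.

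No member differed between Homo and WT after adjustment over all genes, and the number that lay above WT depended on the library Homo 4. Of the 32 tested members 0 were called at an adjusted p under 0.05 by edgeR's quasi-likelihood test, where 0.222% of all tested genes were called, and DESeq2 and limma voom also called 0. The smallest adjusted p of a member was 0.976. The log2 fold change was above 0 in 28 of 32 members (87.5%), against 50.6% of all tested genes, and its median was 0.26 over the members and 0.002 over all tested genes. At an unadjusted p under 0.05, 4 members were higher in Homo (12.5%) and 0 lower, against 2.64% and 2.09% of all tested genes. The 4 were Mcm2, Mcm5, Mki67 and Cdkn1a. Without Homo 4 the count above 0 was 22 of 32 (68.8%), against 50.2% of all tested genes, the median was 0.104, and Mcm5 was the 1 member at an unadjusted p under 0.05. With all libraries DESeq2 gave these and Mcm4, and limma voom gave E2f1, Mcm2, Mcm4, Mcm5 and Mki67. In whole tissue more cells of a kind and more RNA per cell cannot be told apart, and members share regulators, so their counts are not independent.

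Among the replication genes the log2 fold change in Homo against WT was above 0 in 13 of 13, with a median of 0.26 and a range from 0.01 (Tyms and Rrm2) to 0.55 (Cdc6). This count depended on the processing. It was 11 of 13 with limma voom, 10 of 13 without WT 6 and 10 of 13 with the replicate number as a block. The helicase genes Mcm2, Mcm4 and Mcm5 were largest among those over 1 CPM, each at log2 0.46. For Mcm5 the WT values ran from 2.01 CPM through a median of 2.61 to 3.0 CPM, the Het values were 3.01, 2.37, 2.47 and 1.81 CPM, and the Homo values 3.14, 4.05, 3.06 and 4.01 CPM. Every Homo liver lay above every WT and every Het liver, although the lowest Homo value, 3.06 CPM, stood close to the highest WT and Het values, 3.0 and 3.01 CPM. Homo exceeded WT in Mcm5 by a fold of 1.37 (95% interval 1.08 to 1.75, edgeR unadjusted p = 0.0142, adjusted p = 0.976). Mcm5 was the only member whose Homo and WT values did not overlap, and of all tested genes 0.735% lay apart with Homo higher and 0.42% with Homo lower.

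For Mcm2 the WT values ran from 2.61 CPM through 3.13 to 3.44 CPM, the Het values were 4.13, 3.78, 2.71 and 2.41 CPM, and the Homo values 3.4, 4.09, 4.5 and 4.83 CPM. Homo 2, 3 and 4 lay above all WT livers and Homo 1 within their range. For Mcm2 the Homo over WT fold was 1.38 (95% interval 1.08 to 1.77, edgeR unadjusted p = 0.0146, adjusted p = 0.976). Mcm4 gave 1.38 (interval 0.985 to 1.93, unadjusted p = 0.0598), with Homo values of 6.21, 5.68, 7.86 and 6.59 CPM against 3.15 to 6.16 CPM in WT. Mcm3, with a fold of 1.25, and Mcm6, with 1.19, had intervals that included 1 (0.946 to 1.66 and 0.915 to 1.56). The last of the helicase subunits, Mcm7, gave 1.08 (interval 0.885 to 1.32).

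Of the other replication genes, those over 1 CPM had folds near 1. Pcna had means in WT, Het and Homo of 16.9 ± 1.81, 17.7 ± 1.33 and 17.6 ± 1.51 CPM (± SD, n = 6, 4 and 4). Its Homo over WT fold of 1.04 had the narrowest interval of the tested members, 0.91 to 1.19. Tyms, which makes thymidylate for DNA, and Rrm2 both had a fold of 1.0, with intervals of 0.769 to 1.31 and 0.716 to 1.41. Rrm1, the large subunit of ribonucleotide reductase, gave 1.1 (0.931 to 1.29) and Cdt1, the partner of Cdc6 in loading the MCM ring, 1.03 (0.738 to 1.44). Cdc6 and Gins2, a subunit of the active helicase, were at 0.579 CPM or less in every group mean, and their folds of 1.47 and 1.28 had intervals of 0.708 to 3.04 and 0.676 to 2.44.

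**Figure D2:**
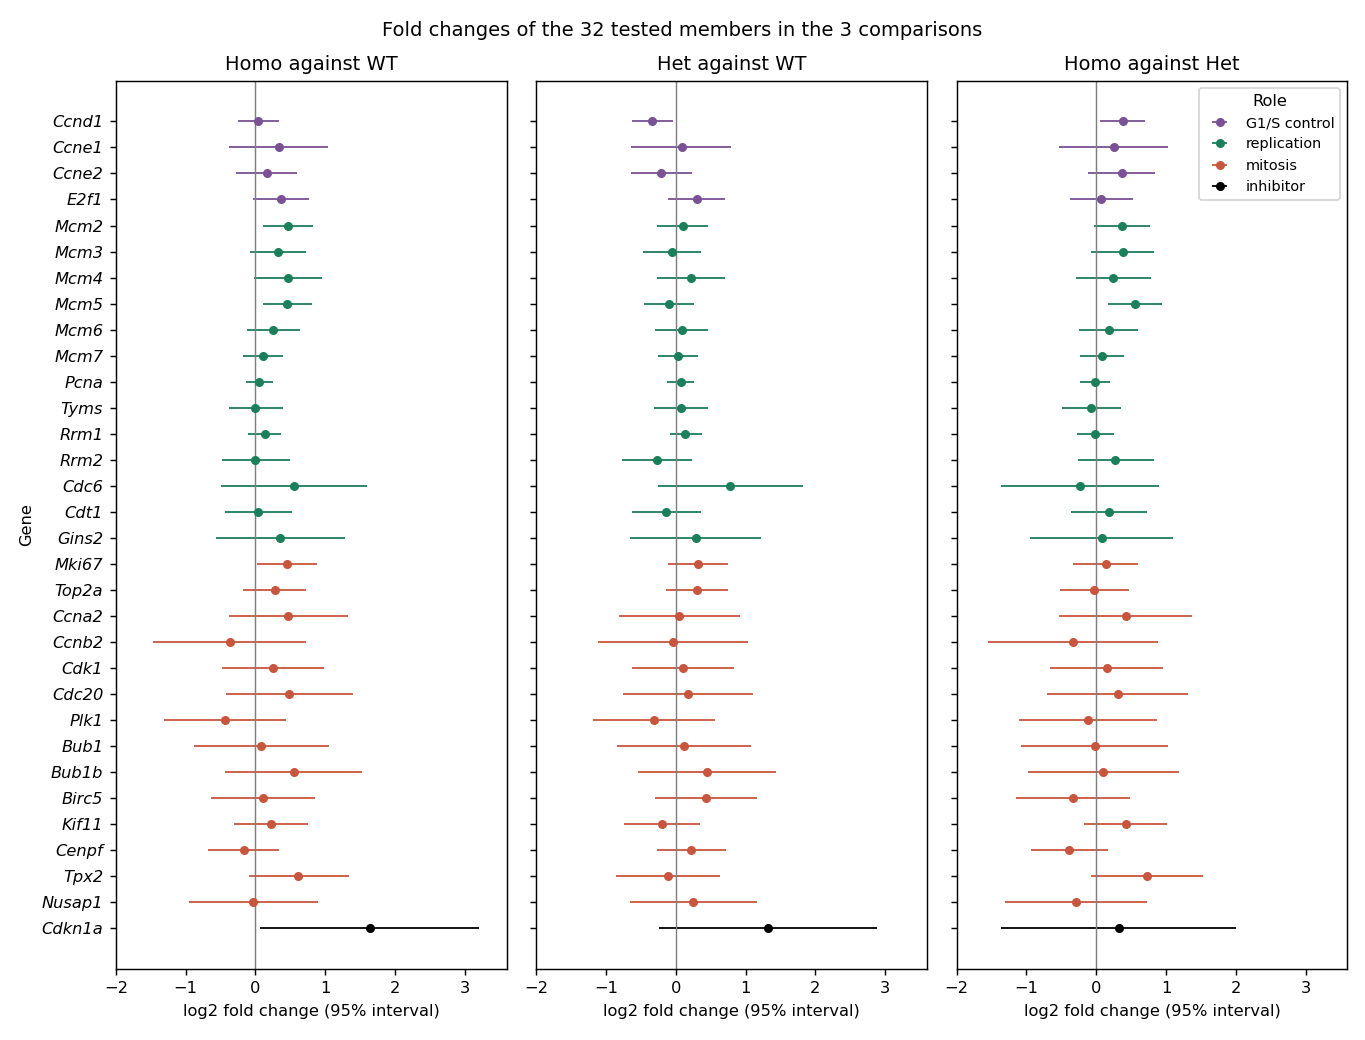
Log2 fold change with its 95% interval (edgeR) for the 32 tested members, coloured by role, with 1 panel each for Homo against WT (left), Het against WT (middle) and Homo against Het (right). In the left panel all 13 replication genes lie at or right of 0, the intervals of Mcm2, Mcm5, Mki67 and Cdkn1a leave 0 out, and the scarce mitosis genes have wide intervals.

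For the replication genes the median log2 fold change in Homo against WT went from 0.256 to 0.187 without Homo 4, with 12 of 13 above 0. Without that liver Mcm2 was at log2 0.39 and Mcm5 at 0.4, and Mcm3 and Mcm7, both highest in Homo 4, went from 0.33 to 0.22 and from 0.11 to 0.04. The mitosis genes moved further. Of the 14 tested mitosis genes 10 were above 0 in Homo against WT, with a median of 0.24 (range -0.44 for Plk1 to 0.62 for Tpx2), and without Homo 4 the count was 7 of 14 and the median -0.015. Homo 4 had the highest value of all 14 libraries in 8 of the 14 tested mitosis genes (57.1%). The mean over the mitosis genes of the log2 level, centred per gene, was 0.43 in Homo 4, and between -0.18 and 0.09 in the other 13 libraries. Over the replication genes this mean was 0.14, 0.0, 0.17 and 0.19 in the Homo libraries and between -0.15 and 0.03 in WT, while Het ran from -0.17 to 0.17. Whether the replication and mitosis genes differ in these shifts was not tested.

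**Figure D3:**
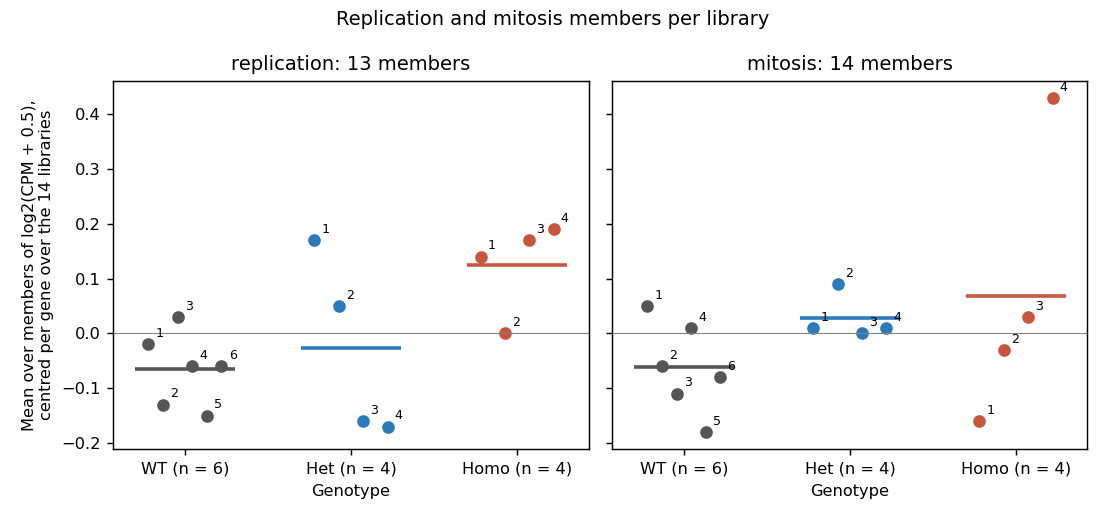
Mean over the 13 replication genes (left) and the 14 tested mitosis genes (right) of log2(CPM + 0.5), centred per gene over the 14 libraries, for each library (dots, numbered by replicate) and genotype (bars, the group mean). Replication in Homo lies at 0.0 to 0.19, and on the right Homo 4 stands alone at 0.43.

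Within mitosis, Mki67 had the lowest p. Its WT values ran from 3.61 CPM through 5.51 to 7.82 CPM, the Het values were 6.3, 8.14, 6.81 and 6.25 CPM, and the Homo values 6.07, 6.5, 8.01 and 9.83 CPM. The groups overlapped, since WT 1 at 7.82 CPM exceeded 2 of the Homo livers. For Mki67 the Homo over WT fold was 1.37 (95% interval 1.02 to 1.84, edgeR unadjusted p = 0.036, adjusted p = 0.998), and the log2 value of 0.46 became 0.32 without Homo 4. Tpx2, which nucleates spindle microtubules, was at 0.825, 0.654, 0.718 and 1.7 CPM in Homo and between 0.447 and 1.04 CPM in WT. Its log2 fold change of 0.62 became 0.23 without Homo 4. Bub1b, the spindle checkpoint kinase BUBR1, was at 0.462, 0.654, 0.302 and 1.76 CPM in Homo against 0.319 to 0.776 CPM in WT, so that 1 liver lay above the WT range, 1 just below it and 2 within it. Cdk1, the kinase that drives entry into mitosis, was at 0.528, 0.899, 0.718 and 1.59 CPM in Homo against 0.327 to 1.04 CPM in WT. Without Homo 4 the sign turned for both, to log2 -0.16 for Bub1b and -0.11 for Cdk1.

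Top2a, the topoisomerase that untangles chromosomes, averaged 2.0 ± 0.457 in WT and 2.43 ± 0.579 CPM in Homo (SD, n = 6 and 4, fold 1.21, 95% interval 0.884 to 1.65). Ccna2 (cyclin A2) had a fold of 1.38 (0.765 to 2.5) and Kif11, the motor that separates the spindle poles, 1.17 (0.807 to 1.68). Cdc20, an activator of the anaphase-promoting complex, gave 1.4 (0.743 to 2.64). Bub1, a kinetochore kinase, gave 1.06 (0.544 to 2.08), and Birc5 (survivin) 1.08 (0.641 to 1.81). The 4 mitosis genes below WT were Plk1, the Polo-like kinase, at a fold of 0.74 (0.402 to 1.36), Ccnb2 (cyclin B2) at 0.774 (0.361 to 1.66), Cenpf, a kinetochore protein, at 0.888 (0.626 to 1.26) and Nusap1, a spindle protein, at 0.979 (0.515 to 1.86). All of these intervals included 1. Without Homo 4 the log2 fold change went from 0.27 to 0.11 for Top2a, from 0.47 to 0.22 for Ccna2, from 0.22 to 0.09 for Kif11 and from 0.49 to 0.36 for Cdc20. That of Bub1 changed sign, from 0.09 to -0.31, and those of Plk1 and Nusap1 went to -0.77 and -0.23.

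**Figure D4:**
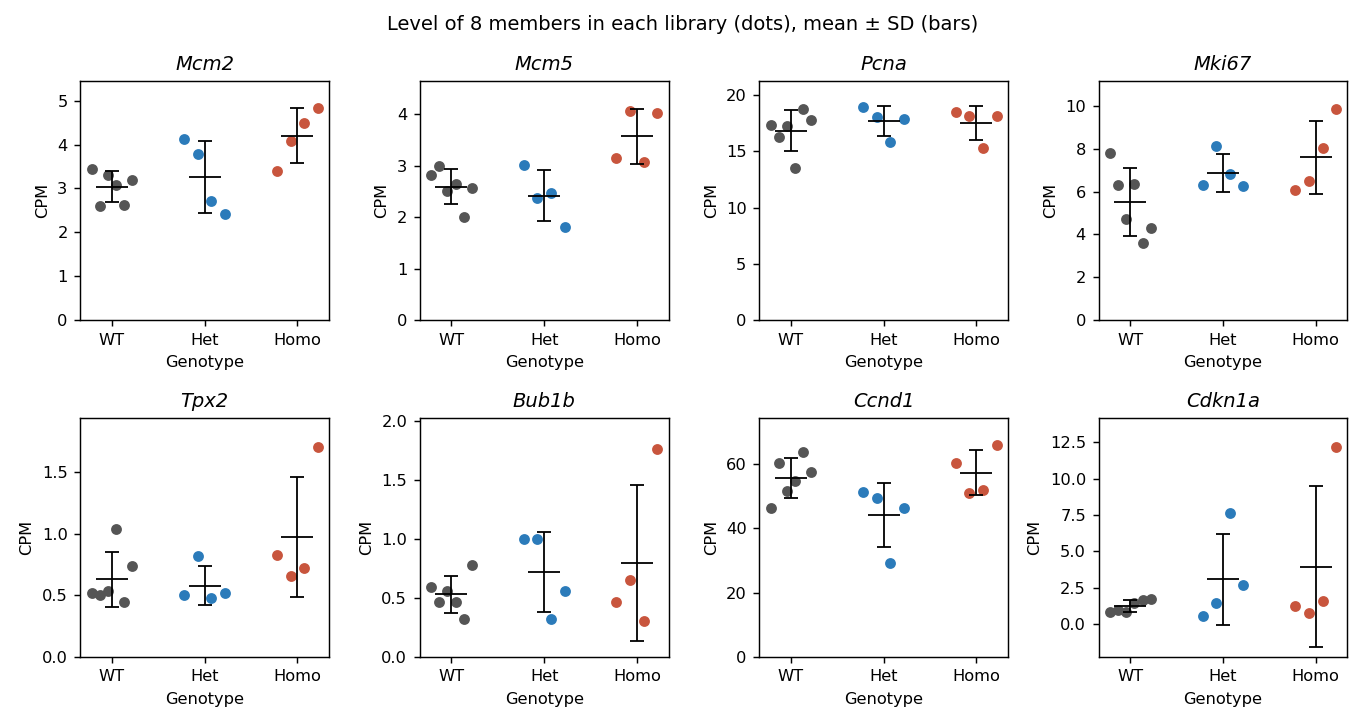
CPM of 8 members in each library (dots) by genotype, with mean ± SD (black bars). All 4 Homo livers lie above WT and Het for Mcm5, while for Tpx2 and Bub1b a single liver, Homo 4, lies far above the rest. For Cdkn1a Homo 4 is highest, and Het 3 also lies above the other 12 livers.

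Of the 4 genes of G1/S control all were above 0 in Homo against WT, with a median log2 fold change of 0.24 and 0 at an unadjusted p under 0.05. Without Homo 4 the count was 3 of 4 and the median 0.245. Ccnd1, the cyclin that couples growth signals to the cycle, ran from 46.2 CPM through 56.1 to 63.6 CPM in WT, and was at 51.3, 49.4, 29.3 and 46.4 CPM in Het and at 60.2, 51.1, 52.0 and 65.8 CPM in Homo. Homo 1, 2 and 3 lay within the WT range, Homo 2 and 3 below its median, and Homo 4 lay just above the range. The Homo over WT fold was 1.03 (95% interval 0.84 to 1.26), and without Homo 4 the log2 value went from 0.04 to -0.03. Ccne1 and Ccne2, the E-type cyclins that start S phase with CDK2, had Homo over WT folds of 1.26 (0.772 to 2.05) and 1.12 (0.828 to 1.51). E2f1, an activating E2F, was at 3.1, 2.78, 2.76 and 2.8 CPM in Homo and between 1.6 and 3.06 CPM in WT. Its fold of 1.29 (0.972 to 1.71) had an unadjusted edgeR p of 0.074.

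Cdkn1a (chromosome 17, the chromosome that also carries Pkd1) had the largest fold change of any member and the widest spread. The WT values ran from 0.827 CPM through 1.21 to 1.72 CPM, the Het values were 0.543, 1.5, 7.61 and 2.71 CPM, and the Homo values 1.29, 0.776, 1.59 and 12.2 CPM. Het 3 (191 counts) and Homo 4 (222 counts) lay above the other 12 libraries, which reached 2.71 CPM, while Homo 1, 2 and 3 lay within or just below the WT range. The Homo over WT fold of Cdkn1a was 3.11 (95% interval 1.05 to 9.17, edgeR unadjusted p = 0.0411, adjusted p = 0.998), and in Het over WT 2.49 (0.844 to 7.36, adjusted p = 0.998). Without Homo 4 the log2 fold change in Homo went from 1.64 to -0.025, and without Het 3 that in Het went from 1.32 to 0.35.

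Other genes were also highest in those 2 livers. Het 3 and Homo 4 held the 2 highest values in 464 of the 16201 tested genes (2.86%). Among 23 tested p53 target genes this was so for 3: Trp53inp1, a stress-induced partner of p53, at 73 CPM in Het 3 and 69 CPM in Homo 4 against 19.3 to 53.5 CPM in the other 12 livers, Ddit4 (REDD1, an inhibitor of mTORC1 induced by stress and glucocorticoids) at 31.6 and 22.9 CPM against 1.75 to 12.5 CPM, and Gdf15, a stress-induced hormone, at 2.43 and 4.39 CPM against 0.345 to 1.77 CPM. The p53 targets Mdm2, Ccng1 and Bax were not. Mdm2, the ubiquitin ligase of p53, stood at 32.5 and 30.5 CPM against 21.6 to 35.8 CPM, Ccng1 (cyclin G1) at 21.6 and 26.3 CPM against 24 to 32 CPM, and Bax, a mediator of apoptosis, at 11.5 and 12.8 CPM against 10.8 to 14.5 CPM.

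Among 15 tested genes of the fasting and glucocorticoid response, 5 had their 2 highest values in Het 3 and Homo 4. Fkbp5, a glucocorticoid-induced chaperone, was at 155 and 184 CPM there against 65.4 to 132 CPM elsewhere, and Tsc22d3 (GILZ) at 163 and 214 CPM against 36.9 to 156 CPM. Igfbp1, which insulin represses, was at 56.2 and 29.2 CPM against 2.46 to 23.2 CPM. Pck1, a gluconeogenic enzyme, and Sgk1, a kinase induced by glucocorticoids, completed the 5. These genes were picked out after their values were seen. Feeding state and time of collection are not in the labels, and their part in the Cdkn1a values was not tested.

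**Figure D5:**
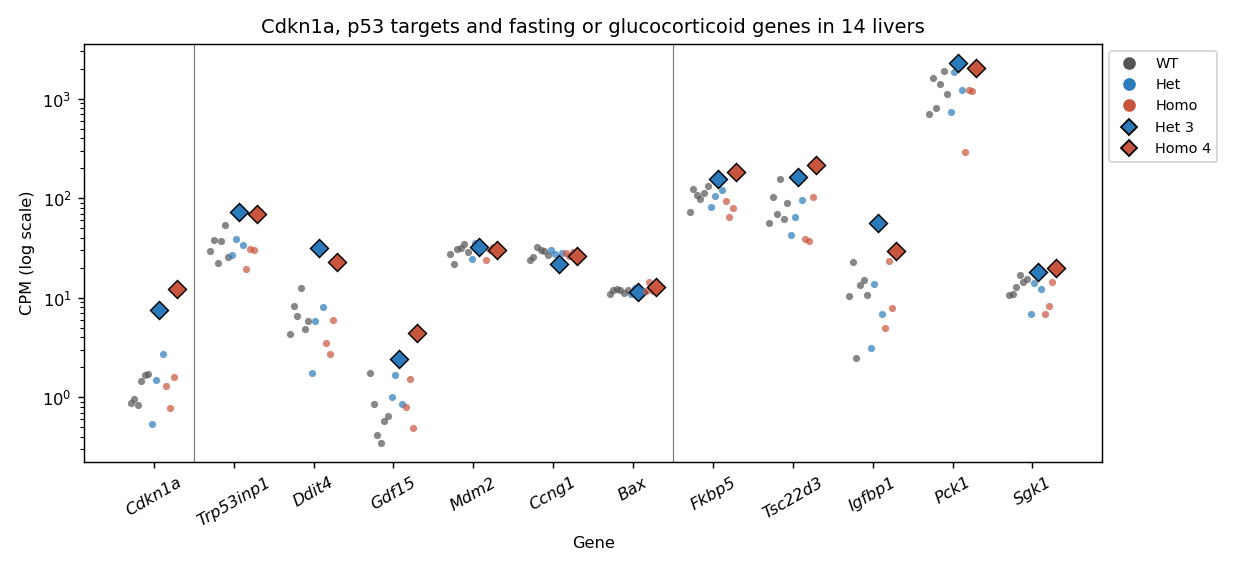
CPM on a log scale in the 14 livers (dots, coloured by genotype; diamonds, Het 3 and Homo 4) for Cdkn1a, 6 of the 23 tested p53 targets and 5 of the 15 tested fasting and glucocorticoid genes. The diamonds top the other livers for Cdkn1a, Trp53inp1, Ddit4, Gdf15 and the 5 genes on the right, and lie among them for Mdm2 and Bax. For Ccng1 Homo 4 lies among the other livers and Het 3 below them.

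Homo 4 differed from the other livers in further genes. Ranked by the log2 ratio of Homo 4 to the median of the other 13 libraries, Cdkn1a held rank 4 among genes highest there. It came after Cyp2a4, Cux2 and Acot3, and ahead of Plin4, Cpt1b, Snhg4, Pnpla3, Gdf15 and AA986860. Not all of these were particular to Homo 4, since Cyp2a4 was at 9.99 CPM there and at 9.67 CPM in WT 4. Cux2, a transcription factor of female mouse liver, was at 8.67 CPM against at most 1.1 CPM elsewhere, while the Y-linked Ddx3y, at 67.3 CPM, lay within the 60.4 to 78.0 CPM of the other livers. Hsd3b5, a steroid dehydrogenase of male mouse liver, was lowest in Homo 4, at 58.9 CPM against 80.4 to 174 CPM elsewhere. Acot3, a peroxisomal thioesterase, was at 8.78 CPM against at most 2.76 CPM, and Plin4, a lipid droplet coat protein, at 41.3 CPM against at most 23.6 CPM. Homo 4 also had the smallest total count of the 14 libraries. The part of depth or of these other differences in the mitosis values was not tested.

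In Het against WT 0 members were called, and 0.0556% of all tested genes were. The log2 fold change was above 0 in 22 of 32 members (68.8%), against 50% of all tested genes, with a median of 0.09 over the members and 0.0 over all tested genes. Without Het 3 the count was 21 of 32 and the median 0.168. By role the count above 0 was 9 of 13 for replication (median 0.08), 10 of 14 for mitosis (median 0.14) and 2 of 4 for G1/S control (median -0.07). In the same order, leaving out Het 3 gave 10 of 13 (median 0.161), 8 of 14 (median 0.153) and 2 of 4 (median 0.104). At an unadjusted p under 0.05, 0 members were higher and 1, Ccnd1, was lower, against 2.36% and 2.31% of all tested genes, and DESeq2 gave the same counts. No member was apart without overlap, where 0.697% of tested genes were with Het higher and 0.506% with Het lower. For Ccnd1 the Het over WT fold was 0.792 (95% interval 0.645 to 0.973, edgeR unadjusted p = 0.029, adjusted p = 0.998). It rested in large part on Het 3, the lowest Ccnd1 of all 14 livers at 29.3 CPM, and went from log2 -0.34 to -0.18 without it. The same liver had the lowest Ccne1, at 0.836 CPM.

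The replication genes were not uniform among the Het livers. Het 1 was the highest of all 14 libraries in 4 of 13 replication genes, among them Mcm6 at 8.18 CPM and Rrm1 at 11.1 CPM, and Het 4 was the lowest in 4, among them Mcm5 at 1.81 CPM and Cdt1 at 1.16 CPM. Over all tested genes Het 1 was highest in 6.82% and Het 4 lowest in 6.09%. For Mki67 all 4 Het livers lay between 6.25 and 8.14 CPM, in and just above the upper part of the WT range, with a fold over WT of 1.25 (95% interval 0.928 to 1.68, edgeR adjusted p = 0.998). limma voom gave Mki67 an unadjusted p under 0.05 in Het, which edgeR did not. Birc5 and Bub1b were at folds of 1.35 (0.811 to 2.25) and 1.36 (0.686 to 2.7).

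In Homo against Het, which shares its Homo and Het libraries with the 2 comparisons above, 0 members and 0.0309% of all tested genes were called. The smallest adjusted p of a member was 0.916. The log2 fold change was above 0 in 21 of 32 members (65.6%), against 50.5% of all tested genes, with a median of 0.15. Without Het 3 and Homo 4 the count was 13 of 32 and the median -0.007. At an unadjusted p under 0.05, Ccnd1 and Mcm5 were higher in Homo (6.25% of the members) and 0 were lower, against 2.73% and 2.38% of all tested genes. Mcm5 had a fold of 1.47 (95% interval 1.12 to 1.93, edgeR unadjusted p = 0.00833, adjusted p = 0.916), and Ccnd1 one of 1.3 (1.04 to 1.62, unadjusted p = 0.0251, adjusted p = 0.932). Without Het 3 the log2 value was 0.57 for Mcm5 and 0.22, down from 0.38, for Ccnd1. The values did not overlap for Mcm5, with Homo higher, and for Cenpf, with Homo lower (0.924, 0.858, 0.794 and 0.878 CPM against 1.0, 1.59, 0.956 and 0.991 CPM in Het), and such separation was seen in 1.42% of tested genes with Homo higher and in 1.52% with Homo lower. The Cenpf fold was 0.763 (0.521 to 1.12, unadjusted p = 0.152). Replication genes were above 0 in 9 of 13 (median 0.18) and mitosis genes in 7 of 14 (median 0.04). Without Homo 4 the mitosis median was -0.245, with 4 of 14 above 0, and without Het 3 the replication median was 0.068.

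Further genes of the same pathways were examined beside the members. Of 42 other replication genes 41 were tested and 0 called in any comparison. In Homo against WT 28 of the 41 (68.3%) were above 0, against 50.6% of all tested genes, with a median log2 fold change of 0.07. At an unadjusted p under 0.05, 4 were higher and 0 lower, against 2.64% and 2.09% of all tested genes. Without Homo 4 the count above 0 was 25 of 41 and the median 0.058. Cdc7, the kinase that fires licensed origins, had the smallest p: it was at 0.396, 0.368, 0.491 and 1.15 CPM in Homo against 0.0358 to 0.286 CPM in WT, without overlap. Of all tested genes 0.735% lay apart in this way, with Homo higher. The log2 fold change of Cdc7 was 2.19 (SE 0.57, edgeR unadjusted p = 0.00161, adjusted p = 0.401), on only 55 counts in all of Homo and 22 in WT. Without Homo 4, its highest liver, the log2 value was 1.71 (edgeR adjusted p = 0.67). Pole and Pola1, catalytic subunits of replicative polymerases, were at log2 0.43 and 0.37 (unadjusted p = 0.03 and 0.0328).

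Of 48 other mitosis genes 39 were tested and 0 called. In Homo against WT 25 (64.1%) were above 0 (median 0.16), against 50.6% of all tested genes. At an unadjusted p under 0.05, 3 were higher and 1 lower, against 2.64% and 2.09% of all tested genes. Ncapg2, a condensin subunit, was at log2 0.59 and Prc1, which bundles the central spindle, at 0.89, both highest in Homo 4. Without that liver they were at log2 0.51 and 0.76, and the median over the 39 genes went from 0.162 to 0.031. Cenpk, a kinetochore protein, was at log2 -1.16, with its lowest value, 0.11 CPM, in Homo 4, and at -0.94 without it. Of 27 G1 cyclins, kinases and pocket proteins 17 (63%) were above 0 (median 0.03), against 50.6% of all tested genes. The smallest p were those of Ccnd2, Skp2 and E2f5. Ccnd2 (cyclin D2) was at log2 0.12 (edgeR unadjusted p = 0.117). Skp2, a ubiquitin ligase subunit that removes p27, was at log2 0.23 (edgeR unadjusted p = 0.135). E2f5, a repressive E2F, was at log2 -0.27 (edgeR unadjusted p = 0.194). Of 7 other kinase inhibitors 4 were tested. Cdkn1b (p27) averaged 18.8 ± 3.36 in WT and 19.4 ± 2.3 CPM in Homo, Cdkn1c (p57) at 0.991 ± 0.308 and 0.792 ± 0.235 CPM, and Cdkn2d (p19) at 1.32 ± 0.366 and 1.26 ± 0.327 CPM (SD, n = 6 and 4).

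Of 24 p53 targets 23 were tested, 0 called, and 15 above 0 in Homo against WT (median 0.11), or 10 without Homo 4 (median -0.021). These were 65.2% and 43.5% of the 23, against 50.6% and 50.2% of all tested genes. The smallest p were those of Perp (log2 -0.18, unadjusted p = 0.0147), Fas (log2 -0.37, unadjusted p = 0.0551) and Gdf15 (log2 1.19, unadjusted p = 0.0554, and log2 0.27 without Homo 4). Replication-dependent histone genes encode the histones made in S phase. Of 66 listed 51 were tested, 0 called, and 38 above 0 (median 0.1), where 50.6% of all tested genes were above 0. H2bc18, H2bc14 and H2bc9 were at log2 0.68, 1.27 and 0.92 (0.68, 0.89 and 0.83 without Homo 4). These histone genes are near-identical copies, so the split of reads among them is uncertain.

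Markers of other cell types were summed per library because proliferating cells in whole liver need not be hepatocytes. The summed lymphocyte level was 23.1 to 29.5 CPM in WT, 30.3 to 35.5 CPM in Het and 30.5 to 37.8 CPM in Homo, so WT lay below both. Of the 16 lymphocyte markers 10 were tested. Cd3e, a T cell receptor subunit, was the largest part of the sum, averaging 11.7 ± 3.87 in WT and 18.5 ± 3.43 CPM in Homo, while its complex partner Cd3g was at 0.324 ± 0.179 and 0.361 ± 0.202 CPM (SD, n = 6 and 4). The Cd3e values were 3.93 to 14.2 CPM in WT, 15.5 to 18.8 CPM in Het and 15.5 to 23.3 CPM in Homo. The next largest parts, Ighm, Igkc and Cd4, overlapped between the groups, so the separation of the sum rested on Cd3e. Kupffer cell markers summed to 261 to 310 CPM in WT, 262 to 322 CPM in Het and 305 to 328 CPM in Homo. Of these 11 markers 10 (90.9%) were above 0 in Homo against WT, against 50.6% of all tested genes, and 0 were called. Erythroid markers summed to 100 to 135, 102 to 135 and 98.6 to 111 CPM and neutrophil markers to 1.42 to 6.51, 2.35 to 8.23 and 1.78 to 3.51 CPM in WT, Het and Homo. In Homo 4 the lymphocyte sum was 30.5 CPM, the lowest of the Homo livers, and the Kupffer sum 321 CPM. Sinusoidal endothelial markers summed to 365 to 426 CPM in WT, 397 to 462 CPM in Het and 392 to 470 CPM in Homo, with Het 3 the highest of Het and Homo 4 the highest of Homo. Stellate cell markers summed to 323 to 408, 329 to 446 and 363 to 395 CPM in WT, Het and Homo, again highest within their groups in Het 3 and Homo 4. Cholangiocyte markers summed to 41.3 to 59 CPM in WT, 42.7 to 58.6 CPM in Het and 40.9 to 88.3 CPM in Homo, with Homo 4 at 43.1 CPM. Hepatocyte markers summed to 62998 to 79937, 61367 to 72191 and 58808 to 86849 CPM, and here too Het 3 and Homo 4 were the highest of their groups. Of the 10 listed hepatocyte markers 9 were found by name, and G6pc1 was not. No marker found for these 8 cell types was at 0 in all libraries, and the part of cell makeup in the members' values was not tested.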

How the data were processed

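RNA of whole liver from 14 chow-fed littermates was sequenced. RNA came from Trizol and RNeasy columns and libraries from a NuGen Ovation kit, per the labels' protocols. The authors deposited a table of expected counts (estimated counts per gene), for which the submitters' processing notes list STAR, Salmon and the build GRCm39. What each tool did, its version, the annotation and the strand setting were not given in the sources used here. Between 6.36% and 8.59% of the values of a library were not whole (tolerance 0.01), and all were rounded to counts.

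Genes were filtered with filterByExpr (count minimum 10, total minimum 15), which left 16201 of 57180, scaled with TMM and fitted in edgeR 4.0.16 (quasi-likelihood, two-sided, R 4.3.3) with all 14 libraries and the group as the only term. P-values were adjusted with Benjamini-Hochberg over all tested genes, and an adjusted p under 0.05 made a call. Fold intervals are at 95% and rest on the same fit. DESeq2 1.42.0, limma 3.58.1 (voom with sample quality weights) and the other alternatives are in the closing section. Levels are CPM on the effective library size. The fit was tested on simulated counts. Even the 2 libraries with the lowest chi-square, WT 4 and Homo 4, differed beyond sampling noise (23.7 times the chi-square that noise alone gives). This value grows with depth, and Homo 4 had the smallest total, so it does not rank the libraries by likeness. Each library was 1 replicate.

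The members and all gene lists were chosen with earlier results of these data known. The named genes are the 34 members, Pkd1, from each other pathway list any called gene and the 3 of lowest p in Homo against WT, and the 10 genes leading in Homo 4 (highest there, at least 1 CPM, pseudocount 0.5, model names and pseudogenes left out). Other genes named were chosen after their values were seen. Exon lengths and chromosomes came from GENCODE M21 and promoters from RefSeq (both GRCm38). P-values measure the spread between these livers.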

Additional observations from a re-analysis of the deposited data

Results flagged for a closer look

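In each of 102 groups of values (34 members in 3 genotypes), the highest or lowest library was set against the gap to its nearest neighbour. Of these, 9 groups (8.82%) held a library far from the others. The limits used give about 1 in 20 groups for independent, normally distributed values. The members share the same livers and many had few counts, so 8.82% cannot be read against that rate. Of the 9, 2 were in Homo 4: Cdkn1a at 12.2 CPM, against 0.776 to 1.59 CPM in the other Homo livers, and Tpx2 at 1.7 CPM, against 0.654 to 0.825 CPM. Het 2 was high in 2 mitosis genes, with Cenpf at 1.59 CPM against 0.956 to 1.0 CPM in the other Het livers and Tpx2 at 0.819 CPM against 0.478 to 0.517 CPM. Kif11 was low in Het 1, at 0.668 CPM against 1.16 to 1.23 CPM. In WT, Ccne1 was high in WT 5, at 3.96 CPM against 1.43 to 2.25 CPM, and Top2a in WT 4, at 2.91 CPM against 1.75 to 2.01 CPM. Pcna was low in Homo 3, at 15.3 CPM against 18.2 to 18.5 CPM, and E2f1 high in Homo 1, at 3.1 CPM against 2.76 to 2.8 CPM. Both of the last gaps are small in size and stand out because the other 3 livers lay close together.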

How the results depend on the processing

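No member was called in any of the 21 alternatives, and the smallest adjusted p of a member in them was 0.66. DESeq2 called 63 genes in Homo against WT (36 with edgeR), 34 in Het against WT (9) and 20 in Homo against Het (5). With no low-count filter 23 were called in Het against WT. Fitting only the 2 groups compared gave 2 in Homo against Het. Leaving out 1 library at a time gave, in the same order, 23 to 40, 8 to 11 and 4 to 7 genes, with the 23 without Homo 1. The replicate numbers did not pair the libraries (correlations of same-numbered libraries from -0.0756 to 0.24). With the replicate number as a block 19 genes were called in Homo against WT and 2 in Homo against Het, and the median log2 fold change of the replication genes in Homo against WT was 0.135.

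Leaving out 1 library at a time, the median over the replication genes ran from 0.166 to 0.31 in Homo against WT, from -0.041 (without Het 1) to 0.161 in Het against WT and from 0.048 (without Het 4) to 0.245 in Homo against Het, where it was 0.068 without Het 3. The median over the mitosis genes ran from -0.015 (without Homo 4) to 0.377 (without Homo 1), from 0.123 to 0.21 and from -0.245 (without Homo 4) to 0.264 (without Homo 1), and in Homo against Het it was -0.124 with limma voom. With Het 3 and Homo 4 both left out, an alternative added after seeing the data, the mitosis medians were -0.014 in Homo against WT and -0.215 in Homo against Het, and the replication median in Homo against Het was 0.04. The cause was not tested.

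Of 96 member fold changes, 43 changed sign in at least 1 alternative (124 of 2013 recomputed values), in 10 of these by 1 standard error or more. In Homo against WT these were Cdk1, Bub1b and Cdkn1a without Homo 4. Leaving out 1 library at a time, their log2 values ran from -0.11 to 0.46, from -0.16 to 0.82 and from -0.025 to 1.98, the lowest without Homo 4, and with Het 3 left out too they were -0.11, -0.16 and -0.025. In Homo against Het Bub1b ran from -0.6 (without Homo 4) to 0.38, with -0.85 without both livers, and Cdkn1a from -1.34 (without Homo 4) to 1.29. In Het against WT Mcm6 ran from -0.19 (without Het 1) to 0.21. Counts were as low as 0 to 9 in a library for Ccnb1, and Cdc6 had 1 count in its lowest library.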
